A study of Homo sapiens with 14 samples.

Results

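A set of 10 genes was examined that belong to the epithelial-mesenchymal transition, the switch between tightly joined epithelial cells and loosely attached, motile cells. They are the cadherins CDH1, CDH2 and CDH3, the epithelial adhesion molecule EPCAM, the intermediate filament gene VIM and the transcription factors ZEB1, ZEB2, SNAI1, SNAI2 and TWIST1. The genes were taken by symbol, and all 10 were found among the 24199 features of the DU145 table and among the 44591 genes of the LNCaP table.

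The RNA-seq data come from human prostate cancer cell lines in a study of the neural transcription factor PAX6. DU145 cells, an androgen-independent line, carried either a non-target control shRNA (shCON, 3 libraries, genotype label WT) or an shRNA against PAX6 (shPAX6, 3 libraries). According to the methods these were stable lines made with lentiviral vectors, and the labels do not say which of the PAX6 hairpins was sequenced. LNCaP cells, an androgen-responsive line, were sequenced as parental cells (1 library, WT) and as an enzalutamide-resistant line kept in 20 µM of this antiandrogen drug (LNCaP-ENZ, 1 library), derived by 30 days of treatment according to the text of the series. No label says whether the 3 libraries of a DU145 group came from separate cultures, so the p-values below measure the spread between these libraries, which may be technical.

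E-cadherin, encoded by CDH1, holds neighbouring epithelial cells together at adherens junctions, where catenins tie its tail to actin. In the epithelial-mesenchymal transition CDH1 is typically repressed by zinc finger factors of the SNAI and ZEB families and by the helix-loop-helix factor TWIST1, while vimentin and often N-cadherin (CDH2) increase. P-cadherin (CDH3) is a cadherin of basal epithelial cells, including those of the prostate, and EPCAM is an adhesion molecule of simple epithelia.

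SNAI and ZEB factors bind the E-box CACCTG. Promoter windows of 250 bases before the start were taken from RefSeq (GRCh38.p14), whose table matched 4 of the members with 11 windows, and the letters CACCTG were searched on both strands (read as CAGGTG on the other). They stood in 2 of the 7 windows of ZEB1, in none of the windows of VIM (1 window), CDH2 (2 windows) and ZEB2 (1 window), and in 17.5% of all 35116 promoter windows. CDH1, CDH3, EPCAM, SNAI1, SNAI2 and TWIST1 were not matched. The window of VIM, the most abundant member in DU145, and the ZEB1 window that held the letters at 2 places are shown, with the matches in capitals. The VIM window lies at chr10:17227991-17228240 and the ZEB1 window at chr10:31318966-31319215, both on the plus strand.
VIM: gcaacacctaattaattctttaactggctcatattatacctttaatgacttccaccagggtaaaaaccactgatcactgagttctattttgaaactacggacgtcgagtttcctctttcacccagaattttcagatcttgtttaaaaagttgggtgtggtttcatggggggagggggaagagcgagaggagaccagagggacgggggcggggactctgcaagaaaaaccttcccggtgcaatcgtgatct
ZEB1: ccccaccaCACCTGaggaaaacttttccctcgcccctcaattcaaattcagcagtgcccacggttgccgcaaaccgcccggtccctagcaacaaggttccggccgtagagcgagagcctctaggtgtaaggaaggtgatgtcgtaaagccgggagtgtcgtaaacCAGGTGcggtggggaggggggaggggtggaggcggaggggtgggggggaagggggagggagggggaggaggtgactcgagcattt
In the ZEB1 window the matches begin 242 and 85 bases before the start, and 2.53% of all promoter windows held the letters at 2 or more places. A match of letters is a description of the sequence and does not show that a factor binds there.

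PAX6, the targeted gene, was read first in DU145 as a check of the labels. It measured 0.839, 1.23 and 1.57 FPKM (fragments per kilobase of transcript, scaled to the size of the library) in shCON libraries 1 to 3, and 0.0153, 0.274 and 0.0778 FPKM in shPAX6 libraries 1 to 3. Every shPAX6 library lay below every shCON library, although the log2 fold change (log2FC, shPAX6 over shCON) of -2.69 missed the threshold of the test (SE 0.49, limma adjusted p = 0.054). Testing required a mean of at least 0.5 FPKM over the 6 libraries. PAX6 reached it only through shCON, with group means of 1.21 FPKM in shCON and 0.123 FPKM in shPAX6, so this filter favours a lower direction. PAX6 shares exon sequence with ELP4, which lies on the other strand, and no source says that strand was used in counting. The libraries summed to between 470857 and 485479 FPKM in shCON and between 448901 and 570790 FPKM in shPAX6, with the highest sum and the fewest features above 0 (17170) in shPAX6 library 1. Keratins of simple epithelium (KRT8, KRT18 and KRT19) were high in all 6 DU145 libraries, whereas the luminal prostate genes KLK2, TMPRSS2, FOLH1 and HOXB13 were listed at 0. In LNCaP, HOXB13 had 11374 counts in the parental library and 10025 in LNCaP-ENZ.

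CDH1 and CDH3, the neighbouring cadherin genes, fell in DU145 cells with the PAX6 shRNA, and no member rose past the test. Of the 10 genes, 6 were expressed above the filter (a mean of at least 0.5 FPKM over the 6 libraries) and were tested with limma on log2(FPKM + 0.1), a scale that understates changes of low genes. The threshold was an adjusted p under 0.05 over all 13574 tested features. By this rule 2 of the 6 were called, both lower in shPAX6, against 1.20% of all tested features called in either direction, 1.02% called lower and 0.177% called higher. At an unadjusted p under 0.05, 5 of the 6 passed, against 18.3% of all tested features. Because the members were chosen with earlier results of these data known, these shares are a description and no test of the set. The 6 members had a median log2FC of -0.65, compared with -0.12 over all tested features. In bulk RNA, fewer cells expressing a gene and less RNA per cell cannot be told apart.

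CDH1 was read at 6.27, 5.23 and 6.91 FPKM in shCON libraries 1 to 3, against 0.654, 1.56 and 1.57 FPKM in shPAX6 libraries 1 to 3. The lowest shCON library was well above the highest shPAX6 library, and shPAX6 library 1 was the lowest of all. The group means were 6.14 ± 0.844 and 1.26 ± 0.526 FPKM (SD, n = 3), a 4.87-fold difference. The log2FC was -2.28 (SE 0.34, 95% interval -3.07 to -1.48, limma adjusted p = 0.033), which ranked 28 from the lowest of the 13574 tested features. Without shPAX6 library 1 the log2FC was -1.90 (limma adjusted p = 0.0027), and without shPAX6 library 2 it was -2.47 (limma adjusted p = 0.012). Leaving out shCON library 1, 2 or 3 or shPAX6 library 3 gave adjusted p-values of 0.19, 0.18, 0.26 and 0.14 with log2FCs from -2.47 to -2.19, so the call was lost while the direction was kept.

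CDH3 was the most abundant cadherin among the members in DU145, at 20.9, 22.4 and 30.1 FPKM in shCON and 8.20, 11.7 and 11.8 FPKM in shPAX6. The groups did not overlap, and shPAX6 library 1 was again the lowest. The means were 24.5 ± 4.97 and 10.6 ± 2.06 FPKM (SD, n = 3), a 2.31-fold difference with a log2FC of -1.20 (SE 0.21, 95% interval -1.70 to -0.71, limma adjusted p = 0.048). This call was also lost when any shCON library or shPAX6 library 3 was left out (adjusted p from 0.19 to 0.30), and kept without shPAX6 library 1 (limma adjusted p = 0.015) or 2 (0.022). Of 11 alternatives in the processing, 5 kept the CDH3 call and 8 the CDH1 call. The CDH3 call was lost with a pseudocount of 0.01 (limma adjusted p = 0.054), no filter (0.073), median centring (0.051) or no intensity trend (0.058). With the replicate number as a block it was lost as well (0.17, and 0.15 with a GC correction).

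The log2FCs of DU145 features fell with the GC content of their transcripts (Spearman's rho = -0.36 over 12009 features, which are not independent), and 85.3% of the 163 called features were lower. After a GC correction of each library 55.0% of the 222 called features were lower. CDH1 then had a log2FC of -2.14 (limma adjusted p = 0.017) and CDH3 one of -0.97 (limma adjusted p = 0.044).

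CDH2 was almost unread in DU145. It was listed at 0 in 5 of 6 libraries and at 0.0113 FPKM in shCON library 2, so the third cadherin gave no comparison.

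CDH1 lies at chr16:68771193-68869445 and CDH3 at chr16:68678739-68732971 in GRCh37, in the same orientation, 38.2 kb apart. Their neighbours ZFP90 and TANGO6, looked up after the values of the cadherins were seen, had log2FCs of -0.35 (limma adjusted p = 0.50) and -0.29 (limma adjusted p = 0.60), and for both genes the groups overlapped. Within each library CDH3 exceeded CDH1 by 3.33, 4.29 and 4.36 times in shCON and by 12.5, 7.49 and 7.55 times in shPAX6. CDH1 was thus reduced further than CDH3 in every shPAX6 library, a difference that was not tested.

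**Figure D1:**
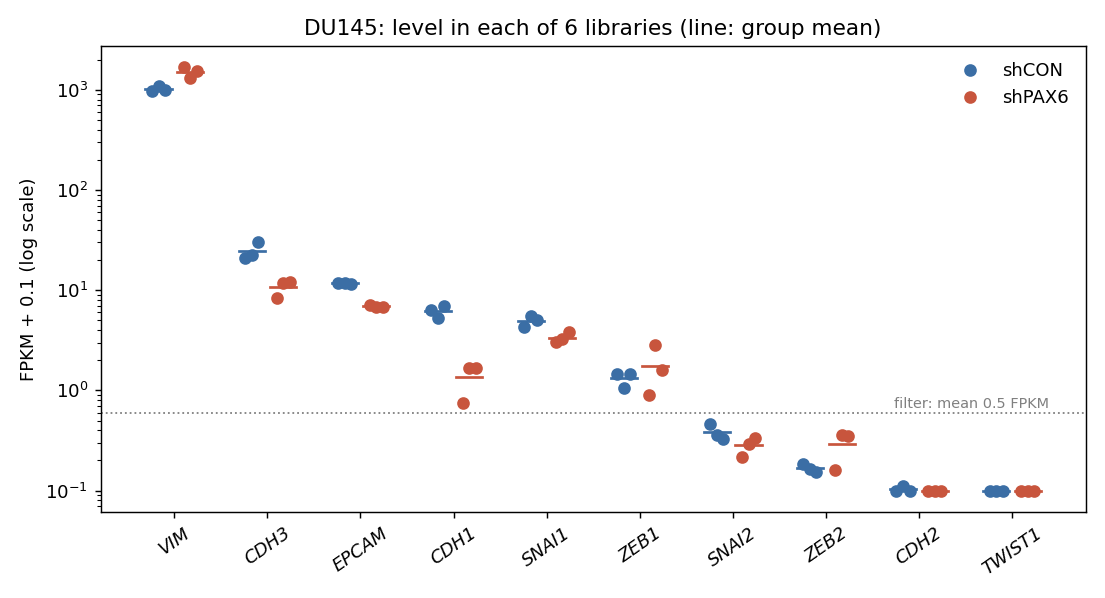
The level of each member in the 6 DU145 libraries, as FPKM + 0.1 on a log axis, with 1 point per library and a line at the group mean of FPKM + 0.1. The shPAX6 points lie below all shCON points for CDH3, EPCAM, CDH1 and SNAI1 and above them for VIM, while CDH2 and TWIST1 lie at or near 0.

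EPCAM, VIM and SNAI1 separated the groups as well but did not pass the threshold. Over all tested features 26.7% had groups that did not overlap, 20.0% lower in shPAX6 and 6.70% higher, and of the 6 tested members 4 were lower in this sense and 1 was higher. The choice of members with earlier results known limits this comparison too.

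EPCAM showed the tightest groups, at 11.7, 11.6 and 11.5 FPKM in shCON and 7.08, 6.75 and 6.71 FPKM in shPAX6. Its means of 11.6 ± 0.129 and 6.84 ± 0.204 FPKM (SD, n = 3) gave a log2FC of -0.75 (SE 0.14, limma adjusted p = 0.054). With 1 library left out, EPCAM passed without shPAX6 library 1 (limma adjusted p = 0.016) or 2 (0.033) and missed the threshold in the other 4 fits (0.23 to 0.34), and after a GC correction, described above for the cadherins, it was at -0.69 (0.11).

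VIM, which encodes the intermediate filament of mesenchymal cells, was among the most abundant transcripts of DU145, ranking 66 of 24199 features in shCON and 45 in shPAX6. It measured 971, 1102 and 988 FPKM in shCON and 1685, 1306 and 1557 FPKM in shPAX6. All 3 shPAX6 libraries were higher than every shCON library, and shPAX6 library 1 was the highest of the 6, as it was in the sum of FPKM. The means were 1021 ± 71.3 and 1516 ± 193 FPKM (SD, n = 3), with a log2FC of 0.56 (SE 0.17, 95% interval 0.18 to 0.95, limma adjusted p = 0.14). With 1 library left out, VIM passed only without shPAX6 library 2 (limma adjusted p = 0.036), and the other 5 fits gave 0.084 to 0.53.

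The ratio of VIM to CDH1 within a library, which does not depend on the library's total, was 155, 211 and 143 in shCON and 2576, 837 and 993 in shPAX6. The smallest shPAX6 ratio was above the largest shCON ratio. This follows from the separate groups of CDH1 and of VIM given above, and is no further result.

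Among the repressors that are members, SNAI1 was the most abundant in DU145. It measured 4.21, 5.38 and 4.93 FPKM in shCON and 2.95, 3.12 and 3.73 FPKM in shPAX6. The groups did not overlap, and the log2FC was -0.55 (SE 0.19, limma adjusted p = 0.20). After the GC correction the log2FC of SNAI1, whose transcript holds 58.4% GC, was -0.23 (limma adjusted p = 0.42).

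ZEB1 measured 1.36, 0.946 and 1.37 FPKM in shCON and 0.794, 2.71 and 1.497 FPKM in shPAX6. The shPAX6 libraries spanned the whole shCON range, and the log2FC was 0.28 (SE 0.42, 95% interval -0.71 to 1.27, limma adjusted p = 0.79). Without shPAX6 library 2, the highest, it was -0.13.

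ZEB2, SNAI2 and TWIST1 were under the filter. ZEB2 measured 0.0842, 0.0651 and 0.0527 FPKM in shCON and 0.0620, 0.257 and 0.247 FPKM in shPAX6, so that shPAX6 libraries 2 and 3 were above all others and library 1 was within the shCON range (two-sided exact permutation test, p = 0.30, n = 3). SNAI2 measured 0.358, 0.255 and 0.226 FPKM in shCON and 0.118, 0.190 and 0.237 FPKM in shPAX6, with overlapping groups (two-sided exact permutation test, p = 0.20, n = 3). TWIST1 was listed at 0 in all 6 libraries. TWIST2, which is not a member and was looked up after the values were seen, had means of 8.97 FPKM in shCON and 8.43 FPKM in shPAX6, above those of SNAI1. A permutation test of 3 against 3 libraries cannot give a p below 0.10.

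The order of the members in shCON, by mean FPKM, was VIM, CDH3, EPCAM, CDH1, SNAI1, ZEB1, SNAI2, ZEB2, CDH2 and TWIST1. CDH1 and SNAI1 overlapped, as did CDH2 and TWIST1, and all other neighbours in this order were separate in all 3 libraries. In shPAX6, CDH1 stood below SNAI1 and ZEB1, although the libraries of ZEB1 and CDH1 overlapped there, as did those of ZEB2 and SNAI2.

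Over the 6 libraries, the tested features most like CDH1 by Pearson's correlation of log2(FPKM + 0.1) were ZDHHC3, PRX and GPRIN1, each with r of at least 0.998, and 1334 features had r above 0.9. For VIM they were C8orf58, MICA and G0S2, with r of at least 0.995 and 302 features above 0.9. These correlations rest on 6 libraries in 2 groups and are a description.

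Of 162 further genes in 6 lists of the junctions, the epithelial state and its loss, 99 were tested in DU145 and 6 were called, of which 4 fell and 2 rose. Over all tested features 1.02% were called lower and 0.177% higher. The lists too were chosen with earlier results of these data known, so such shares, here and below, are no test of a list. Of 19 other cadherins only CDH24 was tested, with overlapping groups and a log2FC of 0.16 (limma adjusted p = 0.62). Among 13 tested catenins and partners of the adherens junction, JUP was the only one called. JUP, which encodes plakoglobin, a catenin of both adherens junctions and desmosomes, measured 23.2, 24.1 and 29.0 FPKM in shCON and 13.1, 13.1 and 14.03 FPKM in shPAX6 (log2FC -0.91, limma adjusted p = 0.037). CTNNB1, CTNNA1 and CTNND1, the catenins that bind classical cadherins or link them to actin, had log2FCs of -0.26, -0.29 and -0.28 with adjusted p-values of 0.74, 0.47 and 0.70. They were picked after the values were seen.

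In the list of other epithelial junctions, 33 genes were tested, with a median log2FC of -0.46. Of these 1 was called, and 15 were lower and 2 higher in every shPAX6 library than in any shCON library. Over all tested features the shares separated in this way were 20.0% lower and 6.70% higher. The called gene was TJP3, a scaffold of tight junctions, at 1.08, 1.02 and 1.00 FPKM in shCON and 0.122, 0.154 and 0.331 FPKM in shPAX6 (log2FC -1.97, limma adjusted p = 0.045). TJP3 reached the filter of 0.5 FPKM only through shCON, its shPAX6 mean being 0.202 FPKM, so the filter favours a lower direction. Its call was lost with a pseudocount of 0.01 (limma adjusted p = 0.061) and with quantile normalization (0.054). The membrane protease gene ST14 had a log2FC of -1.60 (limma adjusted p = 0.054). CLDN1, a claudin of tight junctions, lay the other way, with every shPAX6 library above every shCON library and a log2FC of 0.63 (limma adjusted p = 0.18).

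Of the factors that maintain the epithelial state, 7 of 17 were tested and ELF3 alone was called. This epithelial ETS factor was at 10.6, 10.8 and 10.8 FPKM in shCON and 3.56, 3.90 and 4.27 FPKM in shPAX6 (log2FC -1.44, limma adjusted p = 0.014). GRHL2, a regulator of CDH1 in epithelia, was listed at 0 in DU145, and the splicing factor ESRP1 was under the filter, both looked up after the values were seen. The median of this list, -0.10, was close to that of all features.

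Among the other factors of the transition, 20 of 27 were tested and 1 was called, with a median of -0.23. TCF3, whose E12 and E47 proteins bind E-boxes, fell from 61.9, 65.98 and 70.4 FPKM to 30.9, 33.2 and 34.5 FPKM (log2FC -1.01, limma adjusted p = 0.020). HMGA2, a chromatin protein, had the highest log2FC of this list, 1.09, with separate groups (limma adjusted p = 0.11).

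Of 45 mesenchymal effector genes 25 were tested, with a median of -0.04, and 2 were called, both higher. LOX, a collagen crosslinking enzyme, was at 1.71, 2.03 and 1.75 FPKM in shCON and 4.10, 8.55 and 6.26 FPKM in shPAX6 (log2FC 1.67, limma adjusted p = 0.043). TPM1, an actin-binding tropomyosin, was at 70.1, 69.4 and 65.4 FPKM in shCON and 126, 143 and 150 FPKM in shPAX6 (log2FC 1.03, limma adjusted p = 0.020). MMP14 and COL6A2 lay the other way, at log2FCs of -0.89 and -0.80 (limma adjusted p = 0.054 and 0.057). After the GC correction the calls of the lists changed to 5 higher and 2 lower, and JUP (-0.56, limma adjusted p = 0.061), TJP3 (-1.60, 0.061) and TCF3 (-0.64, 0.056) missed the threshold, while CLDN1 passed it as higher (0.65, 0.030). None of the 6 kept its call when any shCON library or shPAX6 library 3 was left out.

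**Figure D2:**
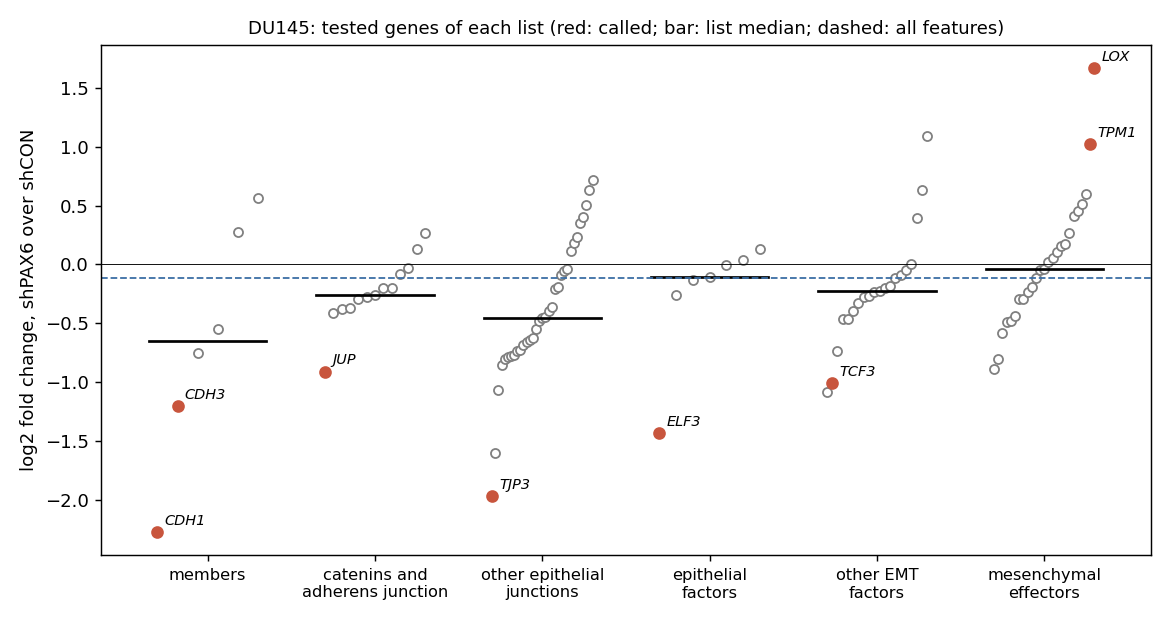
Log2 fold change in DU145 (shPAX6 over shCON) of each tested member and of the tested genes in 5 lists, 1 point per gene, red where the limma adjusted p was under 0.05. Bars give list medians and the dashed line the median of all tested features, -0.12. CDH1 has the lowest value shown and LOX the highest.

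Markers of other cell types were low in DU145. PTPRC and CD3E of leukocytes and DCN of fibroblasts were listed at 0 in all libraries. The summed level of the 7 leukocyte markers, nearly all from CD68, was 36.7 to 39.6 FPKM in shCON and 24.8 to 26.7 FPKM in shPAX6, and its part in the changes of the members was not tested. The 6 fibroblast markers summed to at most 0.828 FPKM and the 5 endothelial markers to at most 0.137 FPKM.

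In LNCaP the balance of the members was the opposite of that in DU145, with CDH1 far above VIM in both libraries. The comparison of LNCaP-ENZ with parental cells asks what changed in cells that had become resistant to enzalutamide. Each arm is 1 library, of 20468001 counts (parental) and 17945722 counts (LNCaP-ENZ), so no test is possible. The 95% intervals (exact Clopper-Pearson for ratios, exact Poisson for levels) cover counting error only. Ratios are of CPM (the count over the library total, scaled up to a common size) plus 0.1, on the log2 scale, and 3 counts were taken as the floor. At this scale genes with a mean of at least 1 CPM had a median log2 ratio of -0.15, so that a ratio of that size marks no change relative to other genes.

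CDH1 had 14739 counts in parental cells and 10115 in LNCaP-ENZ, or 154 and 113 TPM (a value per transcript length, scaled to a common library sum), a log2 ratio of -0.35 (95% interval -0.39 to -0.32). EPCAM had 739 and 537 counts, a log2 ratio of -0.27 (95% interval -0.43 to -0.11). VIM had 1394 and 938 counts, or 33.3 and 24.1 TPM, a log2 ratio of -0.38 (95% interval -0.50 to -0.26). The 3 abundant members were thus lower by similar amounts at this scale. The EPCAM interval includes the median of -0.15 that marks no change relative to other genes, while those of CDH1 and VIM lie below it. These ratios kept their sign under each of the 7 alternatives tried, at -0.44 to -0.18 for CDH1, -0.36 to -0.10 for EPCAM and -0.47 to -0.21 for VIM. The ratio of CDH1 to VIM in TPM was 4.62 in parental cells and 4.72 in LNCaP-ENZ.

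VIM shares exon sequence with VIM-AS1 on the opposite strand, which had 250 and 155 counts. Use of strand in counting is not stated, so reads from the shared stretch, 12.7% of the exon bases of VIM, cannot be assigned to 1 of the 2 genes.

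Of the members over the floor, SNAI2 had the largest log2 ratio in size between the LNCaP libraries. It had 73 counts in parental cells and 1 count in LNCaP-ENZ, or 1.76 and 0.0259 TPM, a log2 ratio of -4.56 (95% interval -11.3 to -3.48), and between -5.77 and -2.11 under the 7 alternatives. SNAI2 encodes Slug, a repressor of CDH1, and a link between the levels of these genes was not tested. Its relative SNAI1 had 313 and 318 counts, or 9.34 and 10.2 TPM, a log2 ratio of 0.21 whose interval of -0.02 to 0.44 includes 0. This interval lies above the median of -0.15 that marks no change relative to other genes. By TPM, SNAI1 was the most abundant of the repressors that are members in both LNCaP libraries, as it was by FPKM in DU145.

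The remaining members were near the limit of detection in LNCaP. CDH2 had 2 and 7 counts, a log2 ratio of 1.31 with an interval of -0.40 to 5.30. CDH3 had 5 and 8 counts, a log2 ratio of 0.66 (95% interval -0.93 to 2.83). ZEB1 had 17 and 10 counts, a log2 ratio of -0.50 (95% interval -1.86 to 0.63). It shares exon sequence with ZEB1-AS1 on the opposite strand, which had 177 and 84 counts. Whether any ZEB1 counts came from ZEB1-AS1 was not tested. ZEB2 had 1 count in each library, and TWIST1 had 1 count in parental cells and 0 in LNCaP-ENZ, where the floor of 3 counts is 0.167 CPM and the exact Poisson interval of the count of 0 reaches 0.206 CPM. Differences of these 5 genes were not detectable at this depth.

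Of the 10 members, 8 were over the floor in at least 1 library, and 2 of them differed by at least 2-fold, CDH2 higher and SNAI2 lower. Among the 21870 genes over the floor this share was 22.5%, with 5.97% higher and 16.6% lower. The median log2 ratio of the 8 members was -0.31, and that of all genes over the floor was -0.19. CDH2 was no longer past this fold with a pseudocount of 1 CPM or by TPM plus 0.1, and it was not among the genes with a mean of at least 1 CPM. Its levels of 0.0229 and 0.0862 TPM were below the 0.1 added, which draws the ratio towards no change.

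**Figure D3:**
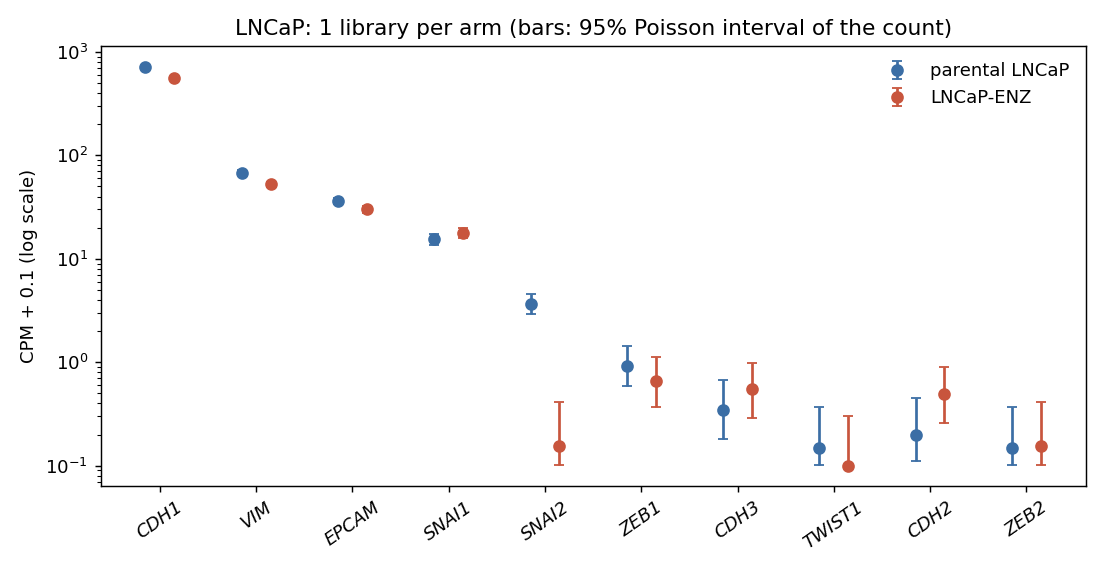
CPM + 0.1 (log axis) of each member in the parental LNCaP and LNCaP-ENZ libraries, ordered by parental TPM. Bars are 95% Poisson intervals of the count. The SNAI2 intervals are separate, while those of ZEB1, CDH3, CDH2, ZEB2 and TWIST1 overlap.

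In the LNCaP libraries 125 of the 162 list genes were over the floor, and 9 were at least 2-fold higher and 24 at least 2-fold lower in LNCaP-ENZ. Among all genes over the floor 5.97% were higher and 16.6% lower by this fold, so these counts are near the shares over all genes. CXADR (660 and 217 counts, log2 ratio -1.41), an adhesion receptor of tight junctions, and DSC2 (489 and 167 counts, -1.35), a desmosomal cadherin, were the lowest of the junction genes with a mean of at least 5 CPM. RAB25 (1825 and 2484 counts, 0.63) and PKP3 (1096 and 1401 counts, 0.54) were the highest. The metalloprotease ADAM10, which cleaves E-cadherin, had 1785 and 694 counts (-1.17).

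Of the mesenchymal effectors with a mean of at least 5 CPM, TNC (117 and 580 counts, log2 ratio 2.48) and COL5A1 (292 and 761 counts, 1.56), both of the extracellular matrix, were the highest. CALD1 (1560 and 593 counts, -1.20), an actin-binding protein, and COL1A1 (456 and 231 counts, -0.79) were the lowest. The fibronectin gene FN1, looked up after its values were seen, had 11349 and 19887 counts. Among the other factors, with the same minimum of 5 CPM, ID3 (253 and 1036 counts, 2.21), an inhibitor of helix-loop-helix proteins, and NR2F1 (54 and 207 counts, 2.09) were the highest, and CTBP2 (2012 and 816 counts, -1.11), a corepressor that binds ZEB proteins, was the lowest. The endothelial marker VWF had 345 and 27 counts, and its part in these ratios was not tested.

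The pair of tables was normalized separately, so levels are compared between the cell lines only as an order of members within a library. In both LNCaP libraries the order by TPM began with CDH1, VIM, EPCAM and SNAI1, whereas in DU145 shCON it began with VIM, CDH3 and EPCAM. CDH3, second in DU145, had 0.0671 and 0.115 TPM in LNCaP. The log2 ratio of CDH1 to VIM within a library lay between -7.72 and -7.16 in shCON, between -11.3 and -9.71 in shPAX6, and at 2.21 and 2.24 in the LNCaP libraries.

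**Figure D4:**
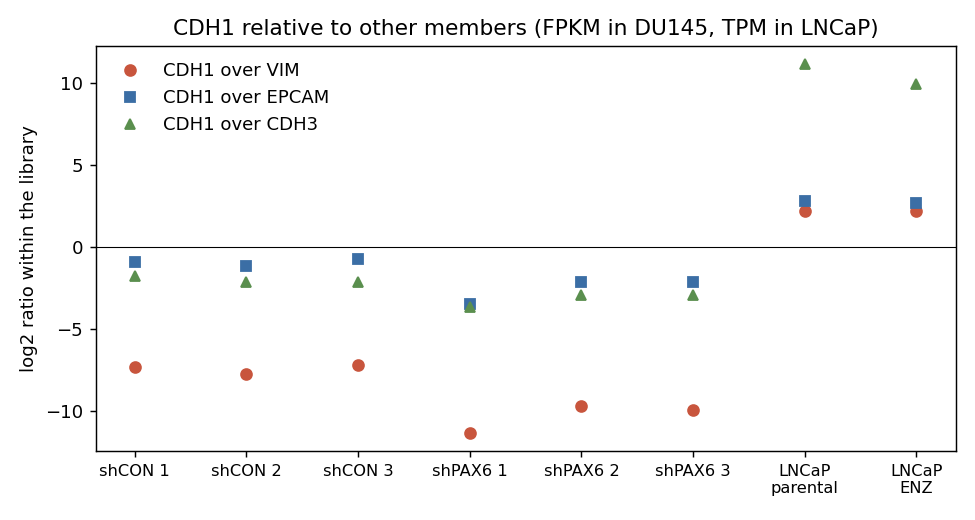
Log2 ratio of CDH1 to VIM, EPCAM and CDH3 within each of the 8 libraries (FPKM in DU145, TPM in LNCaP), 1 point per library. All 3 ratios are below 0 in the DU145 libraries and lower in shPAX6 than in shCON, and all are above 0 in LNCaP, where the ratio to CDH3 rests on 5 and 8 CDH3 counts.

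**Figure D5:**
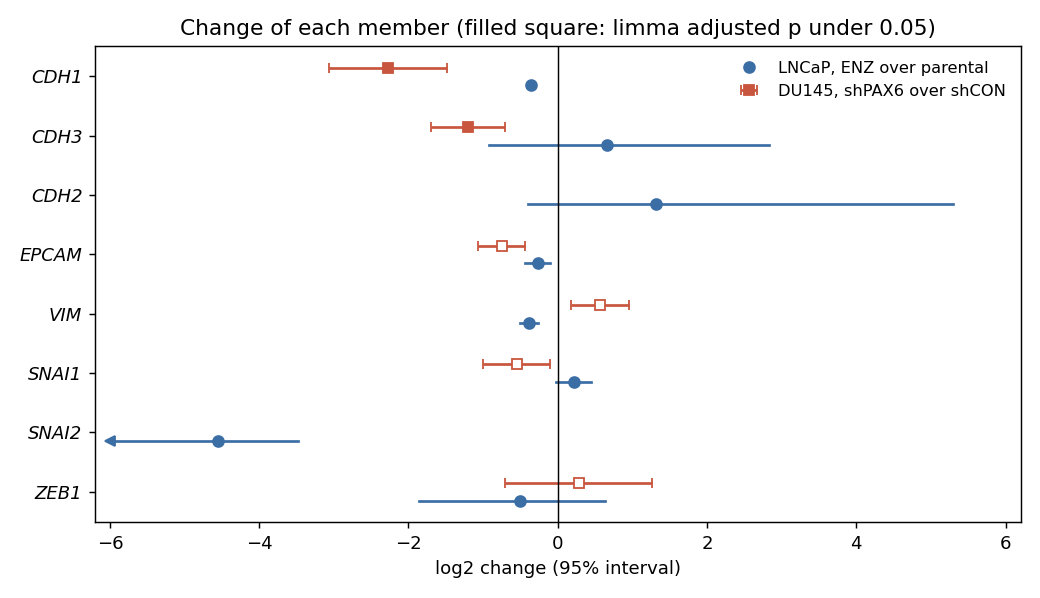
Log2 change of 8 members with 95% intervals, as squares for DU145 (shPAX6 over shCON, from limma, filled where called) and circles for LNCaP (LNCaP-ENZ over parental, counting error only, the SNAI2 interval running past the axis). CDH2 and SNAI2 were not tested in DU145. Only CDH1 and CDH3 are filled.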

How the data were processed

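From the series 8 RNA-seq libraries were used, while the 6 samples of ATAC-seq were left aside. Per the paper's methods, reads were aligned to GRCh37 with HISAT2 and quantified with StringTie. The labels and the methods describe different library kits, and the methods state more LNCaP replicates than the labels list. For LNCaP the authors deposited raw counts and TPM per gene. The deposited DU145 table names no unit, and its values were treated as FPKM. They gave no shared step in the low values of 359 genes, so their depth is unknown and no count test was run.

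DU145 was tested with limma 3.58.1 (lmFit, eBayes with an intensity trend) after adding 0.1 to each FPKM and taking log2, keeping features whose mean reached 0.5 FPKM, two-sided, with Benjamini-Hochberg adjustment over all tested features. Each LNCaP count was divided by the total of its library. Named were all members, PAX6, from each list genes among the 2 largest changes in each direction (in LNCaP with a mean of at least 5 CPM), and the 3 features most like CDH1 and VIM. The members and lists were chosen with earlier results of these data known. Scripts were tested on simulated data. GC content came from GENCODE release 44 lifted to GRCh37.

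Alternatives covered pseudocounts, filters, normalization, array weights, GC content, the replicate number as a block and each DU145 library left out. Samples were grouped by their labels. Some genes of the marker lists are not reported here.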

Additional observations from a re-analysis of the deposited data

How the results depend on the processing

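In DU145 the number of members called, 2, became 1 with a pseudocount of 0.01, with median centring or without the trend, 0 without a filter and 5 with array weights, and 0 to 4 when 1 library was left out. Where 1 member was called it was CDH1, and CDH3 was lost. Of all features 163 were called, against 108 without a filter, 100 with median centring, 4569 with array weights and 0 to 924 when 1 library was left out. Of the list genes 6 were called, against 3 with median centring, 46 with array weights and 0 to 21 when 1 library was left out. With the replicate number as a block, 0 members, 0 list genes and 0 features were called, and with the GC correction as well 0 members, 0 list genes and 7 features. The correlations of same-numbered libraries' deviations were -0.17, -0.37 and 0.05. With 3 libraries per group these values cannot show whether same-numbered libraries shared a culture or batch, and no label says so. The 163 called features were 85.3% lower, against 68.6% with quantile normalization, 72.0% with median centring and 66.2% with array weights. The sign of the log2 fold change turned for genes that were not called, to -0.13 for ZEB1, -0.32 for NECTIN3 and -0.026 for FOXA1 without shPAX6 library 2 (up to 0.69, 0.52 and 0.35 without another library), to 0.051 for ESRP2 with the GC correction, with or without the block, and for KLF4 to -0.14 without shCON library 1, -0.08 without shPAX6 library 2 and -0.02 without shPAX6 library 3 (up to 0.22). CDH1 and CDH3 kept their direction in all 11 alternatives and all 6 fits with a library left out. In LNCaP 2 members were past 2-fold, against 1 with a pseudocount of 1 CPM, with a mean of at least 1 CPM or by TPM plus 0.1. Of all genes 4930 were, against 1118 with a pseudocount of 1 CPM and 1684 with a mean of at least 1 CPM, and of the list genes 33, against 19 with a pseudocount of 1 CPM. With 1 library per LNCaP arm, leaving one out was not possible. The cause of these shifts was not tested.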
